A study of Mus musculus with 10 samples.

Results

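The signalling genes of the mammary gland were compared between the macrophages and the mammary epithelial cells (MECs) of mice in which *Cebpb*, the gene of the transcription factor C/EBPβ, is deleted in macrophages (CebpbΔM). The comparison used 6 of the 10 libraries of the series, joined by gene identifier. They were the 4 macrophage libraries 4 to 7 and the 2 MEC libraries 1 and 3 labelled C/EBPb knockdown, here called CebpbΔM. Members were a list of 572 genes, with 270 ligands, 251 receptors and 51 modulators such as soluble antagonists and decoy receptors, in 23 families. Genes of at least 300 nt with over 1 CPM (counts scaled to a common library total) in 2 or more of the 6 libraries were tested. That filter kept 17638 genes in all and 479 members, and of the 93 members under it, 16 had 0 counts in every library.

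All animals were 10-wk-old BALB/c females in diestrus, and all of them, wild type (WT) controls included, carried floxed *Cebpb* alleles (Cebpb fl/fl). CebpbΔM mice also carried Csf1r-iCre, a Cre transgene under the promoter of the CSF1 receptor gene, which is active across the myeloid lineage and not in macrophages alone, whereas WT mice lacked the transgene. The labels call the deleted genotype a knockdown. MECs were enriched by removing cells with markers of other lineages, and macrophages by positive selection for F4/80, the product of *Adgre1*, after a separate and shorter digestion. Cell type, digestion and selection cannot be told apart in any difference between the groups. Whether a library came from 1 mouse or a pool is not given in the sources used here, so the *P*-values measure the spread between these libraries. Levels are CPM scaled by the trimmed mean of M-values (TMM), and log2 fold changes are macrophage minus MEC with their standard error (SE), so that a positive value is higher in macrophages.

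Macrophages of the mammary gland lie along the ducts and in the stroma, take up dying cells and shape the matrix around the growing epithelium. The epithelium makes growth factors of the EGF and Wnt families and cytokines that maintain macrophages, among them CSF1, whose receptor CSF1R is the defining survival receptor of the macrophage lineage. RANKL, encoded by *Tnfsf11*, is made by hormone-sensing luminal cells in response to progesterone and is the marker of MECs given for these data. A ligand made in a cell type and a receptor made in its neighbor can carry a signal between them, and RNA levels show only which gene is transcribed where.

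The targeted gene was near the floor of detection in every macrophage library. *Cebpb* (chr2:167688915-167690418, GRCm38, single exon) was at 0.816, 0.634, 0.272 and 0.24 CPM in CebpbΔM macrophages 4 to 7, from 16, 13, 5 and 4 counts, and at 2.79 and 1.63 CPM in CebpbΔM MECs 1 and 3. The log2 fold change was -2.15 (SE 0.644, adjusted *P* = 0.0321 by edgeR's quasi-likelihood test with Benjamini-Hochberg adjustment). The call was lost without macrophage 7, where the adjusted *P* was 0.065. The WT macrophage libraries held 0.652 and 0.714 CPM, from 13 and 15 counts. These lay within the range of the macrophage libraries labelled as knockdown, so *Cebpb* did not separate the macrophage genotypes. Counts this low cannot check the deletion. The study reports it by immunoblot and qRT-PCR in bone marrow-derived macrophages and by staining of CSF1R-positive cells in the gland. Exons of *Tmem189* overlap *Cebpb* on the opposite strand, and whether the library kit keeps strand is not given in the sources used here.

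The marker genes placed the libraries on opposite sides, with RNA of other cell types also present in the macrophage libraries. *Adgre1* was at 246, 316, 367 and 345 CPM in macrophages 4 to 7 and had 0 counts in both MEC libraries. All 15 macrophage markers were higher in the macrophage libraries, where they summed to between 11800 and 17300 CPM, against 232 and 408 CPM in MECs, most of it *Cd14*, the LPS co-receptor. The macrophage libraries also held epithelial RNA. The study raises phagocytosed epithelial cells as a possible source of epithelial transcripts in its CebpbΔM macrophages. The WT macrophage libraries held epithelial RNA too. *Krt8*, a luminal keratin gene, was at 2775 and 3217 CPM there, above the 1542 to 1854 CPM of CebpbΔM macrophages. *Epcam* and the basal keratin gene *Krt14* lay within the CebpbΔM range. The source was not tested here. The 12 luminal markers summed to between 5270 and 6700 CPM in macrophages and to 29300 and 35900 CPM in MECs, a mean of 18.3% of the MEC level, and 9 of the 12 were lower in macrophages.

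Basal epithelial markers varied among the macrophage libraries, with sums between 988 and 3610 CPM. The basal keratin gene *Krt14* was at 694.5, 366, 310.5 and 41.5 CPM in macrophages 4 to 7, against 2408 and 1972 CPM in MECs. The basal transcription factor gene *Trp63* stood at 66.5 and 31.2 CPM in macrophages 4 and 5, above the 17.1 and 28.5 CPM of the MEC libraries, and at 11.3 and 3.61 CPM in macrophages 6 and 7. Only 4 of the 10 basal markers were lower in macrophages. Endothelial and mural genes were on the macrophage side. The 6 endothelial markers summed to between 863 and 1860 CPM in macrophages and to 70.9 and 96.4 CPM in MECs, and the 4 pericyte markers to between 366 and 722 CPM and to 66.8 and 112 CPM. All 10 of these genes were higher in the macrophage libraries.

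Fibroblast and leukocyte markers were also present. The 6 B and plasma cell markers summed to between 271 and 415 CPM in macrophages, of which *Ighm*, the immunoglobulin heavy chain gene, made up 258 to 407 CPM, and to 2.39 and 2.53 CPM in MECs. The 6 dendritic cell markers summed to between 111 and 163 CPM in macrophages and the 6 mast cell markers to between 34.3 and 76.6 CPM, against at most 5.94 and 0.243 CPM in MECs. T cell markers summed to between 12.3 and 23.0 CPM in macrophages and to 5.01 and 5.1 CPM in MECs, with 1 of the 3 tested, *Cd4*, higher in macrophages, and natural killer (NK) cell markers to between 0.707 and 2.34 CPM, and the 6 neutrophil markers, mostly through *Csf3r*, summed to between 26.7 and 43.1 CPM against 0.699 and 0.729 CPM in MECs. Of the neutrophil genes, *Retnlg* was higher in macrophages, at 1.94, 5.85, 0.761 and 2.4 CPM against 0 counts, while *Ly6g* had 0 counts in all 6 libraries. The summed level of the 7 fibroblast markers overlapped between the groups, from 3290 to 7670 CPM in macrophages and from 5270 to 6300 CPM in MECs, while 2 of them, *Pdgfra* and *Dpt*, were higher in macrophages. The 5 adipocyte markers summed to between 6.83 and 21.1 CPM in macrophages and to 1.05 CPM in each MEC library. All 3 tested were higher in macrophages. The part of these other cells in the results was not tested. In bulk libraries, fewer cells of a type and less RNA per cell cannot be told apart. Of 10 dissociation stress genes, 3 were higher in macrophages and 1 in MECs, against 19.6% and 14.1% of all genes. The part of the digestion was not tested.

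**Figure D1:**
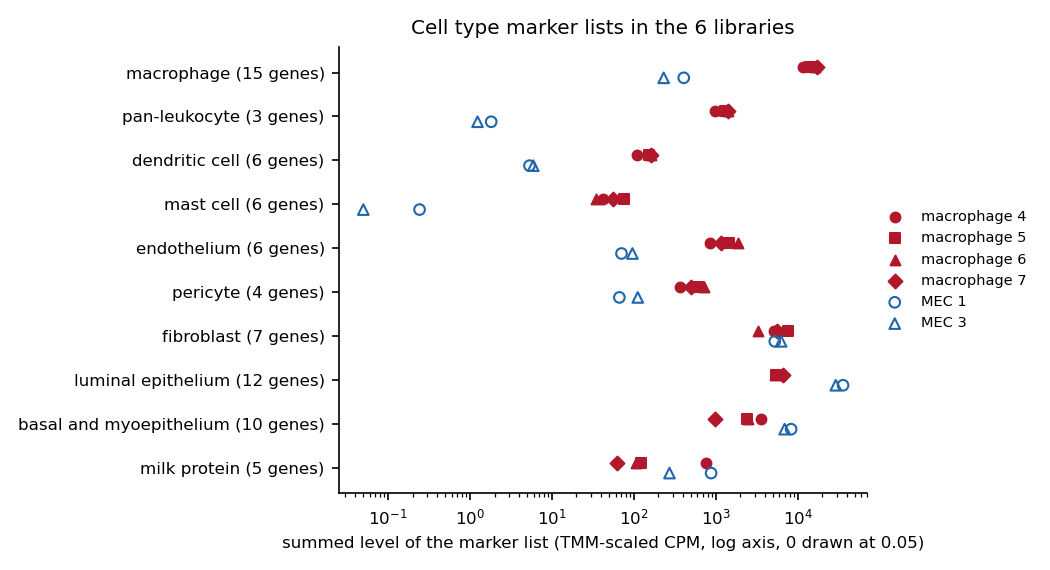
Summed level of 10 cell type marker lists in the 6 libraries, in TMM-scaled CPM on a log axis, with filled red symbols for macrophages and open blue symbols for MECs. Macrophage and pan-leukocyte markers stood far apart, while luminal and basal markers were lower but present in all 4 macrophage libraries, and endothelial markers were higher there (863 to 1860 against 70.9 and 96.4 CPM).

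Members of the list were split between the cell types more often than genes in general and, like genes in general, more often toward macrophages. The list was chosen with earlier results of these data known, and 23 of its genes are also in the cell type marker lists. The excess therefore cannot be read as a trait of signalling genes. Of the 479 members tested, 194 (40.5%) were higher in macrophages and 83 (17.3%) in MECs at an adjusted *P* of 0.05 or less, against 19.6% and 14.1% of all genes tested (33.8% in both directions together). A member was called split when it also differed at least 4-fold and no library of a group overlapped the other group. By this rule, 141 members (29.4%) were split toward macrophages and 31 (6.47%) toward MECs, against 10.6% and 2.68% of all genes. The median log2 fold change was 0.57 over members and 0.066 over all genes.

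Of 230 receptors tested, 113 were higher in macrophages and 28 in MECs, whereas of 205 ligands, 68 were higher in macrophages and 49 in MECs. Among split members, macrophages had 53 ligands, 78 receptors and 10 modulators, and MECs had 19 ligands, 10 receptors and 2 modulators. Of the 141 members split toward macrophages, 66 had a mean under 1 CPM in MECs and 14 had 0 counts there, whereas of the 31 split toward MECs, 5 had a mean under 1 CPM in macrophages and 1, the IL-20 receptor chain gene *Il20ra*, had 0 counts in all 4. The sides cannot be compared by these counts, since the filter keeps a member through its high group alone and 0 counts were asked of 2 MEC libraries but of 4 macrophage libraries. The log2 fold changes of the 13 luminal and basal markers called lower in macrophages ran from -4.05 to -0.96, and 71 of the 83 MEC-higher members lay in that range, with 5 further apart and 7 closer. Without MEC 1, the member counts fell to 139 and 52, and without macrophage 4, the library with the most basal marker RNA, they were 195 and 93.

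**Figure D2:**
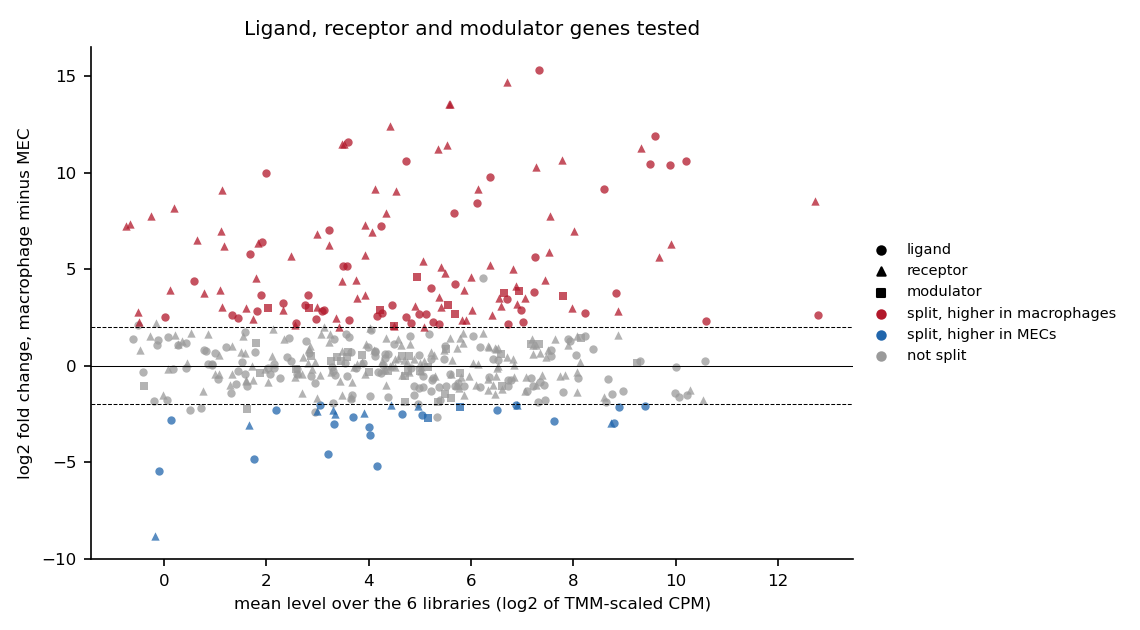
Log2 fold change (macrophage minus MEC) of the 479 tested members against their mean level over the 6 libraries, with symbols by role and colors by split. Red points (141) reach far above the dashed line of 4-fold, while most of the 31 blue points lie close under the lower line.

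The promoters of the leading members that the RefSeq table holds are shown because these genes mark the ends of the split: *Ccl6* and *Ccr2* for the macrophage side, *Epgn* and *Tnfrsf12a* for the MEC side. Each is the 250 bases before the RefSeq start on GRCm38.p6, 5′ to 3′ on the gene's strand, and capitals mark matches on either strand to the letters AGGAAG (the core of ETS family sites, which PU.1 of macrophages also reads), TATAAA (the TATA box) or TTGCNNAA (a C/EBP site).
*Ccl6*, chr11:83593088-83593337, minus strand: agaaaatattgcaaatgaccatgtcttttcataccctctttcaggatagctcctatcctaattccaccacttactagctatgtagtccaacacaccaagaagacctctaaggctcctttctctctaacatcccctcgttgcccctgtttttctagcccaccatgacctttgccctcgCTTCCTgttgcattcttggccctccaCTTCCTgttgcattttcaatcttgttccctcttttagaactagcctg
*Ccr2*, chr9:124101933-124102182, plus strand: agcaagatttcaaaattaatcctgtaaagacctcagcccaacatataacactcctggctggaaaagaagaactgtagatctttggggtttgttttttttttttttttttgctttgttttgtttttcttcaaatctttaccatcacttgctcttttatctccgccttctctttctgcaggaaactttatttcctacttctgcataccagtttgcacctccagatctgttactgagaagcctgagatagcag
*Epgn*, chr5:91027267-91027516, plus strand: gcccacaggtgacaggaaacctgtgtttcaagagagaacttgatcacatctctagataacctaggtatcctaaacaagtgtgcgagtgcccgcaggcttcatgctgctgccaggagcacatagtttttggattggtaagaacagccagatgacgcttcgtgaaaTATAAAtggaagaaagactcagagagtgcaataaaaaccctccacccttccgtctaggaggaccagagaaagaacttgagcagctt
*Tnfrsf12a*, chr17:23677450-23677699, minus strand: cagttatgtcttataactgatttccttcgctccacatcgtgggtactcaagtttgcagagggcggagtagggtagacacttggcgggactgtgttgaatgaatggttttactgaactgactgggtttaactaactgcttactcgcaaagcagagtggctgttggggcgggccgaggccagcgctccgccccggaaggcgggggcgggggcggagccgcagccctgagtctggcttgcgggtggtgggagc
The *Ccl6* promoter held AGGAAG on the other strand at 73 and 47 bases before the start, and the *Epgn* promoter held TATAAA at 86 bases before it. These letters were not in the windows of *Ccr2* and *Tnfrsf12a*. The counted gene models start upstream of the RefSeq start for 3 of these genes, so that 233 bases of the *Ccr2* window, 53 of the *Epgn* window and 19 of the *Tnfrsf12a* window lie inside the counted gene. Promoters were found for 102 of the 141 members split toward macrophages and 22 of the 31 split toward MECs. AGGAAG was in 44 (43.1%) and 4 (18.2%) of them, against 28.9% of 20542 promoters of the same length. TTGCNNAA was in 6 (5.88%) and 1 (4.55%), against 9.19%. The motifs were chosen after the split was known, and the shares are a description.

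Macrophage ligands were led by CC chemokines and complement. *Ccl24* (chr5:135569937-135573049), an eosinophil attractant made by alternatively activated macrophages, was at 161, 209, 276 and 314 CPM in macrophages 4 to 7 and had 0 counts in both MEC libraries, at least 2020-fold higher against a floor of 3 counts per library (adjusted *P* = 8.29e-06, quasi-likelihood test). *Ccl6* (chr11:83587882-83593087), a chemokine of resting and activated macrophages, was at 794, 878, 1339 and 1624 CPM, against 0.526 and 0.0777 CPM, a log2 fold change of 11.89 (SE 0.742, adjusted *P* = 1.28e-05). The log2 fold change of *Ccl6* was 13.74 without MEC 1 and 11.07 without MEC 3. The groups stood far apart for both genes, and macrophages 6 and 7 held the higher values.

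The chains of C1q, the complement component that tags dying cells, were also among the leading ligands. *C1qa* was at 1635, 1539, 2023 and 1884 CPM in macrophages 4 to 7, against 1.62 and 0.622 CPM (log2 fold change 10.62, SE 0.494), and *C1qb* gave a log2 fold change of 10.38. *C1qc* was at 939 to 1273 CPM against 1.26 and 0.272 CPM (log2 fold change 10.46). Without MEC 1, the log2 fold changes of *C1qa* and *C1qc* were 11.45 and 11.91, and without MEC 3 that of *C1qc* was 9.73. *Osm*, the gene of the gp130 cytokine oncostatin M, was at 29.1, 46.8, 35.1 and 48.1 CPM in macrophages. It had 1 count in the MEC libraries together, a ratio of 2000 with a 95% counting interval from 358 to 78900. The log2 fold change of *Osm* was 12.65 without MEC 1 and 9.72 without MEC 3, against 10.59 with both. *Ccl12*, a CCR2 ligand, had 0 counts in MECs and between 9.2 and 28.9 CPM in macrophages, and *Pf4*, a CXC chemokine of platelets and macrophages, had a log2 fold change of 9.75. Per kilobase of transcript, the most abundant macrophage ligand was *Apoe*, which carries lipid and binds TREM2, at 4591 CPM per kb against 747 in MECs.

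Among further macrophage ligands were *Il1b*, the inflammatory cytokine, at 54.8, 111, 72 and 68.2 CPM against 0.243 and 0.389 CPM, and *Igf1*, a growth factor for the ductal epithelium. *Igf1* was at 126, 141, 156 and 172 CPM in macrophages 4 to 7 and at 8.1 and 18.7 CPM in MECs (log2 fold change 3.47, SE 0.364, adjusted *P* = 0.000193, quasi-likelihood test), and the log2 fold change was 4.19 without MEC 3. Its receptor gene *Igf1r* was level between the groups, at 26.8 to 38.8 CPM in macrophages and 27.4 to 32.4 CPM in MECs.

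The leading macrophage receptors were chemokine and phagocytic receptors that had almost no counts in MECs. *Ccr2* (chr9:124101950-124113557), the receptor that brings monocytes into tissue, was at 110, 175, 148 and 192 CPM in macrophages 4 to 7 and had 0 counts in MECs, at least 1310-fold higher (adjusted *P* = 6.14e-06, quasi-likelihood test). *Timd4*, a phosphatidylserine receptor for dying cells, was at 52.8 to 82.3 CPM and *Itgam*, the αM integrin, at 55.2 to 98.0 CPM, both with 0 counts in MECs. *Mrc1*, the mannose receptor, was at 702, 832, 1317 and 995 CPM against 0.364 and 0.389 CPM (log2 fold change 11.30, SE 0.469). *Trem2*, a lipid receptor, was at 51.6, 59.1 and 68.7 CPM in macrophages 4 to 6 and higher in macrophage 7. It had 1 count in the MEC libraries together, a ratio of 3460 with a 95% counting interval from 620 to 137000. The log2 fold change of *Trem2* was 13.46 without MEC 1 and 10.53 without MEC 3, against 11.40 with both. An annotated gene overlaps *Itgam* on the same strand.

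The list also named receptors better known from other leukocytes. *Csf3r*, the G-CSF receptor of neutrophils and monocytes, was at 24.7 to 41.1 CPM, and is itself in the neutrophil list. Of the other genes of that list, *Retnlg* was at 0.761 to 5.85 CPM in macrophages, and *S100a8* and *S100a9* were at most at 0.326 and 0.924 CPM. *Cxcr3* and *Cd226*, receptors of T and NK cells that myeloid cells also carry, were at 11.5 to 25.01 CPM and 11.6 to 21.3 CPM, beside the T cell markers given above. All 3 genes had 0 counts in MECs.

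**Figure D3:**
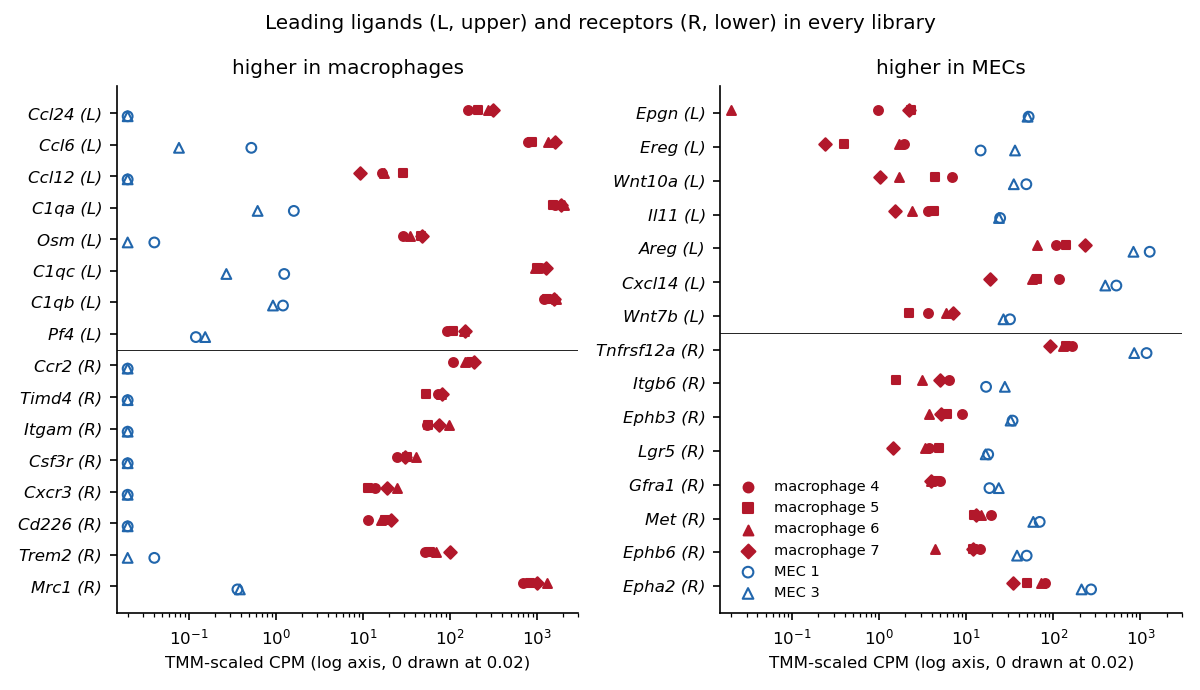
TMM-scaled CPM on a log axis in each library for ligands and receptors with the largest fold changes in each direction, up to 8 of each role, and a mean of at least 10 CPM in the higher group. Macrophage members (left) sat at or near 0 in MECs. MEC members (right) were at a mean of 1.06 to 137 CPM in macrophages. The sides cannot be compared by these levels, since members were chosen by fold change and the filter keeps them through their high group alone.

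MEC ligands were led by the EGF family. *Epgn*, the gene of epigen, was at 52.0 and 50.5 CPM in MECs 1 and 3 and at 0.969, 2.34, 0 and 2.22 CPM in macrophages 4 to 7 (log2 fold change -5.21, SE 0.774, adjusted *P* = 0.00123, quasi-likelihood test). *Ereg*, the gene of epiregulin, was at 14.6 and 36.3 CPM in MECs and at 0.24 to 1.94 CPM in macrophages. *Areg* (chr5:91139599-91148432), the gene of amphiregulin, which carries the estrogen signal of ductal growth, was at 1277 and 831 CPM in MECs and at 108.5, 140.5, 65.2 and 233.5 CPM in macrophages (log2 fold change -2.94, SE 0.422, adjusted *P* = 0.001). It was the most abundant MEC ligand per kilobase, at 867 CPM per kb. The macrophage libraries lay below the MECs for all 3 genes, an order that the rule of the split requires.

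Most of the EGF family lay on this side. Of its 8 tested ligands, 7 were higher in MECs, against 14.1% of all genes. *Tgfa* and *Nrg1* had log2 fold changes of -2.54 and -2.52, and *Hbegf* and *Btc* of -1.48 and -1.53. Its receptor genes were present in both groups. *Egfr* was at 45.1 to 56.9 CPM in macrophages and 38.5 to 47.9 CPM in MECs (log2 fold change 0.27, adjusted *P* = 0.301, quasi-likelihood test), and *Erbb2* was lower in macrophages, at 24.0 to 49.6 against 82.5 and 88.3 CPM (log2 fold change -1.14, adjusted *P* = 0.0133).

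The other leading MEC ligands included Wnt genes, a gp130 cytokine and a chemokine. *Wnt10a* was at 49.0 and 35.1 CPM in MECs and at 6.89, 4.34, 1.69 and 1.02 CPM in macrophages 4 to 7 (log2 fold change -3.58, SE 0.596, adjusted *P* = 0.00219, quasi-likelihood test). *Wnt7b* was at 31.8 and 26.7 CPM against 2.19 to 7.09 CPM. *Il11*, the gene of a gp130 cytokine, was at 24.5 and 23.7 CPM against 1.5 to 4.29 CPM.

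Within the macrophages, 11 of the 49 MEC-higher ligands were highest in macrophage 4 and lowest in macrophage 7, as were 4 of the 28 MEC-higher receptors, 7 of the 10 basal markers and 2 of the 12 luminal markers. Of the 49 ligands, 19 were highest in macrophage 4 and 15 in macrophage 7. These counts were not tested, and the order was not counted over all MEC-higher genes, so they do not set the members apart. *Wnt10a*, *Cxcl14*, *Nrg1* and the laminin chain gene *Lamb3* were among the 11. *Cxcl14*, an epithelial chemokine, was at 115, 65.2, 56.4 and 18.9 CPM in macrophages 4 to 7 against 529 and 395 CPM in MECs. *Lamb3* was at 125, 61.8, 33.0 and 11.3 CPM against 266 and 207 CPM. *Areg* and *Lgals3*, the gene of galectin-3, did not share this order and were highest in macrophage 7, at 233.5 and 417 CPM.

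Of the 230 receptors tested, 12.2% were higher in MECs, against 14.1% of all genes, and 4.35% were split toward MECs, against 2.68%. *Tnfrsf12a* (chr17:23675445-23677468), the receptor of the cytokine TWEAK, was at 1175 and 848 CPM in MECs 1 and 3 and at 165, 141, 128 and 90.5 CPM in macrophages 4 to 7 (log2 fold change -2.95, SE 0.25, adjusted *P* = 6.02e-05, quasi-likelihood test). *Met*, the receptor of hepatocyte growth factor, was at 69.7 and 58.8 CPM against 12.2 to 19.3 CPM (log2 fold change -2.11, SE 0.223). *Itgb6*, an epithelial integrin chain that activates TGF-β, *Lgr5*, a receptor for R-spondins on epithelial stem cells, and *Gfra1*, a receptor for GDNF, had log2 fold changes of -2.48, -2.35 and -2.28.

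The ephrin receptor genes *Ephb3*, *Ephb6* and *Epha2* gave -2.47, -2.04 and -2.02. For *Ephb6* the adjusted *P* was 0.0512 without MEC 1. Each of the 8 leading receptors was detected in every macrophage library. Per kilobase, *Sdc4*, a heparan sulfate proteoglycan that presents growth factors, was the most abundant receptor gene in MECs, at 1108 CPM per kb, and stood at 318 CPM per kb in macrophages.

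RANKL, the luminal marker, did not pass the test. *Tnfsf11* (chr14:78277445-78308043) was at 24.1 and 9.52 CPM in MECs 1 and 3 and at 2.09, 8.09, 0 and 2.34 CPM in macrophages 4 to 7. The groups did not overlap, but the MEC libraries differed from each other more than macrophage 5 did from MEC 3, and the log2 fold change was -2.42 (SE 1.05, adjusted *P* = 0.111, quasi-likelihood test). Without MEC 1, the log2 fold change was -1.61. It was -3.50 without macrophage 5 (adjusted *P* = 0.037) and -1.99 without macrophage 6 (adjusted *P* = 0.0466, quasi-likelihood test). Its receptor gene *Tnfrsf11a* (RANK) was higher in macrophages, at 21.3, 24.9, 19.0 and 21.0 CPM against 5.42 and 5.67 CPM (log2 fold change 1.96, SE 0.235, adjusted *P* = 0.000395).

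Genes known from the endothelium were among the members on the macrophage side. *Kdr* (VEGFR2) was at 95.3, 124, 162 and 108 CPM in macrophages 4 to 7 and at 1.66 and 4.82 CPM in MECs (log2 fold change 5.23, SE 0.487, adjusted *P* = 0.000101, quasi-likelihood test). *Tek*, the angiopoietin receptor, was at 97.9, 170.2, 224 and 180.2 CPM against 4.05 and 6.33 CPM. Both are also in the endothelial marker list, and *Pecam1*, another of its genes, was at 322, 677, 824 and 517 CPM in the same libraries. All 6 endothelial markers were highest in macrophage 6, and they were lowest in macrophage 4 for 4 genes and in macrophage 7 for 2. Without MEC 3, the log2 fold change of *Kdr* was 6.18.

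*Ackr1*, the chemokine-binding decoy receptor of venules, was at 160.2, 349.6, 457 and 311 CPM against 23.5 and 29.7 CPM. *Dll4*, a Notch ligand of endothelial tips, was at 31.8, 52.8, 56.3 and 34.9 CPM against 5.06 and 8.82 CPM. All 9 tested receptors of the PDGF, VEGF and angiopoietin family were higher in the macrophage libraries, against 19.6% of all genes, among them *Pdgfra* and *Pdgfrb*, which are known from fibroblasts and pericytes. The part of endothelial and stromal cells in these differences was not tested.

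Of 217 ligand-receptor pairs listed, 164 had both genes tested, and pairs share genes, so their counts are not independent. The ligand was split toward macrophages and the receptor toward MECs in 1 pair, the reverse held in 4, and both genes were split toward macrophages in 18. Among all tested members, 25.9% of ligands and 33.9% of receptors were split toward macrophages, and 9.27% and 4.35% toward MECs, and whether the pairs depart from these shares was not tested. The crossing pair from macrophages was *Tnfsf12* and *Tnfrsf12a*. *Tnfsf12* (chr11:69686250-69695849), the gene of TWEAK, was at 6.83, 10.1, 13.8 and 12.1 CPM in macrophages 4 to 7 and at 2.1 and 1.86 CPM in MECs (log2 fold change 2.43, SE 0.378, adjusted *P* = 0.00155, quasi-likelihood test). The readthrough gene *Tnfsfm13* overlaps it on the same strand, so part of its reads may be assigned elsewhere.

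The pairs from MECs were *Vegfa* with *Kdr*, *Flt1* and *Nrp1*, and *Il33* with *Il1rl1*. *Vegfa* was at 8.14 and 11.3 CPM in MECs and at 1.8 to 2.28 CPM in macrophages (log2 fold change -2.30, SE 0.311). The receptors *Flt1* and *Nrp1* were at 151 to 227 CPM and 253 to 471 CPM in macrophages, against at most 17.5 and 46.3 CPM in MECs. *Kdr* is also in the endothelial marker list. The 6 genes of that list summed to between 863 and 1860 CPM in macrophages and to 70.9 and 96.4 CPM in MECs. The part of endothelial cells in these pairs was not tested. *Il33*, an alarmin cytokine of barrier cells, was at 192 and 196 CPM in MECs and at 34.1, 31.4, 32.3 and 61.4 CPM in macrophages (log2 fold change -2.29, SE 0.275, adjusted *P* = 0.000398, quasi-likelihood test). Its receptor gene *Il1rl1* (ST2), known from mast cells and regulatory T cells, was at 10.1, 12.3, 12.45 and 21.6 CPM against 1.09 and 3.92 CPM. The mast cell gene *Cpa3* was at 12.1, 18.2, 5.44 and 14.7 CPM in the same macrophage libraries and at 0.162 and 0 CPM in MECs, and its part in the *Il1rl1* difference was not tested.

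At a 2-fold threshold, 16 pairs had the ligand on the MEC side and the receptor on the macrophage side, and 2 pairs the reverse. *Csf1* (chr3:107741048-107760469) was at 154 and 166 CPM in MECs and at 79.8, 79.9, 66.1 and 86.6 CPM in macrophages (log2 fold change -1.03, SE 0.166, adjusted *P* = 0.00181, quasi-likelihood test). Its receptor *Csf1r* was at 1148, 1290, 1775 and 1538 CPM in macrophages against 17.1 and 19.5 CPM. *Cx3cl1*, the membrane chemokine fractalkine, was at 440 and 310 CPM in MECs against 115 to 213 CPM, and *Cx3cr1*, its receptor on macrophages along the ducts, at 5.93 to 27.7 CPM in macrophages against 0.121 and 0.233 CPM. The 13 luminal and basal markers called lower in macrophages ran from -4.05 to -0.96. The log2 fold changes of *Csf1* and *Cx3cl1* (-1.03 and -1.38) lay in that range. So did those of 71 of the 83 MEC-higher members, so this does not set these 2 genes apart.

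Further pairs at this threshold joined MEC ligands of the immune system to macrophage receptors. *Mif*, a cytokine that binds CD74, had a log2 fold change of -1.88 and *Cd74* of 8.53. *Cd24a*, a surface protein that inhibits phagocytosis, had -1.86, while *Siglecg*, its receptor, was at 0.204, 3.51, 3.43 and 5.77 CPM in macrophages 4 to 7 and had 1 count in the MEC libraries together. It is a receptor of B cells, whose markers were also on the macrophage side, and their part was not tested. *Anxa1*, a lipid-binding protein that limits inflammation, had -1.62, while *Fpr2*, its receptor, had 0 counts in MECs and between 0.918 and 1.63 CPM in macrophages. The gene *Fpr3* overlaps *Fpr2* on the same strand, so part of the *Fpr2* reads may be assigned elsewhere.

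Pairs with both genes on the macrophage side were mostly chemokines and their receptors, among them *Ccl2*, *Ccl7* and *Ccl12* with *Ccr2*, and *Ccl3*, *Ccl6* and *Ccl9* with *Ccr1*. *Ccl9* was at 390.1, 488, 689 and 761.6 CPM in macrophages 4 to 7 and at 1.17 and 0.855 CPM in MECs. *Ccr1* was at 55.4, 45.8, 70.0 and 73.3 CPM and had 1 count in the MEC libraries together. The cytokine gene *Il10* and the receptor gene *Il10ra* had log2 fold changes of 5.14 and 9.16, and that of *Il10* was 6.12 without MEC 3 and 4.55 without MEC 1. *Osm* had no such partner, since *Osmr* was at 107 to 244 CPM in macrophages and at 135 and 281 CPM in MECs (log2 fold change -0.49, SE 0.387, adjusted *P* = 0.363, quasi-likelihood test).

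**Figure D4:**
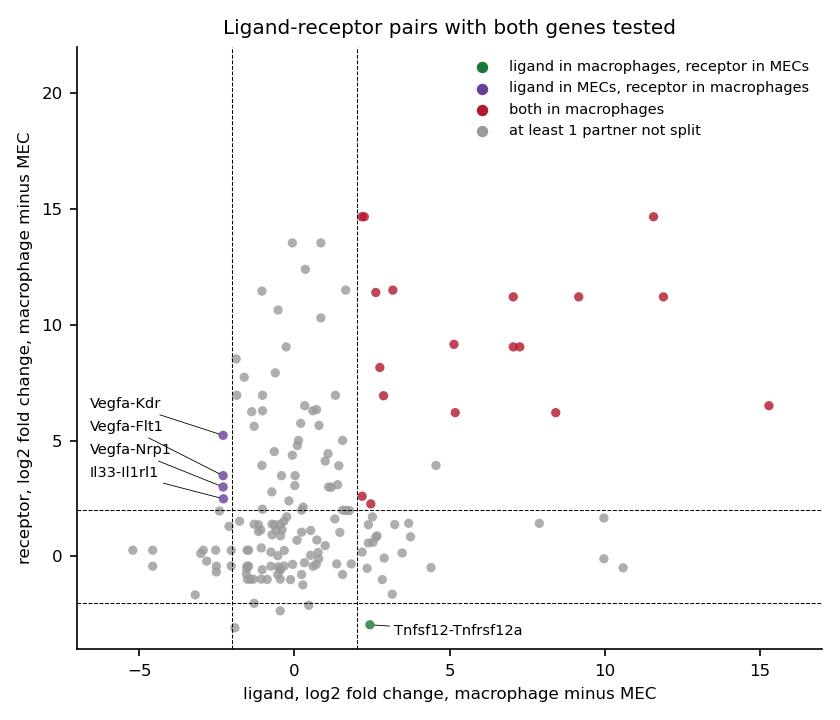
Log2 fold change (macrophage minus MEC) of the ligand against that of the receptor for the 164 pairs with both genes tested, with dashed lines at 4-fold. The crossing pairs are named, 1 with the ligand in macrophages and 4 with the ligand in MECs, and 18 pairs had both genes on the macrophage side.

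Families differed in their balance. In the CC chemokine family, 18 of 23 tested members were higher in macrophages and the others did not pass the test, and in apoptotic cell uptake and complement, 22 of 32 were higher in macrophages and 3 in MECs. The family of immune co-signalling had 10 of 14 higher in macrophages and 3 in MECs, and the interleukins and gp130 cytokines 28 and 11 of 59. The EGF and neuregulin family had 8 of 12 higher in MECs. The TGF-β, BMP and activin family was even, with 11 and 10 of 32, and among Wnt genes 30 of 40 passed in neither direction, with 3 higher in macrophages and 7 in MECs. The background was 19.6% of all genes toward macrophages and 14.1% toward MECs.

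**Figure D5:**
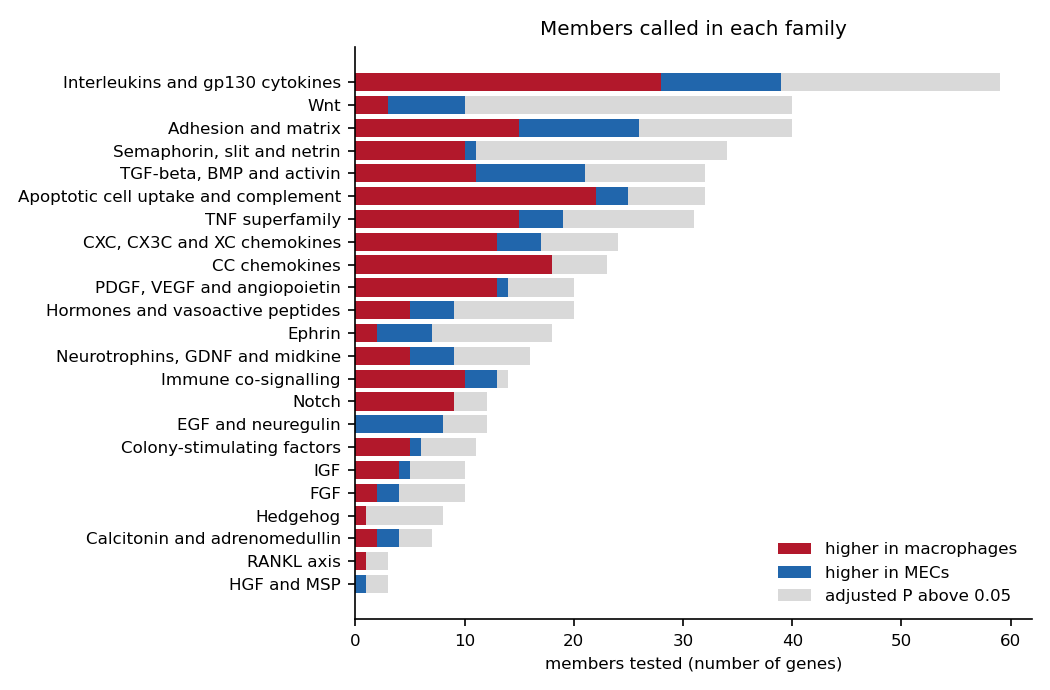
Number of tested members in each of the 23 families, with those higher in macrophages (red), higher in MECs (blue) and above the threshold (gray). CC chemokines had 18 of 23 on the macrophage side, and EGF and neuregulin genes 8 of 12 on the MEC side. Of all genes, 19.6% were higher in macrophages and 14.1% in MECs.

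Modulators, which bind ligands without signalling or tune receptors, were split in both directions. *Il1rn*, the IL-1 receptor antagonist gene, was at 104, 176, 148 and 149 CPM in macrophages 4 to 7 and at 9.63 and 11.4 CPM in MECs (log2 fold change 3.77, SE 0.276, adjusted *P* = 2.68e-05, quasi-likelihood test), on the same side as *Il1b*. *Il1r2*, the IL-1 decoy receptor gene, had a log2 fold change of 2.87. On the MEC side, *Fst*, the gene of the activin antagonist follistatin, was at 95.1 and 70.5 CPM against 22.9, 14.7, 7.39 and 4.99 CPM (log2 fold change -2.72, SE 0.498). *Ltbp2*, a latent TGF-β binding protein gene of the matrix, had -2.13, and its adjusted *P* was 0.0552 without MEC 1 and 0.0774 without MEC 3.

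In the WT libraries, which the split did not use, most split members kept their side, at shares near those of all split genes. Of the 141 members split toward macrophages, 132 (93.6%) were higher in both WT macrophage libraries than in both WT MEC libraries, against 91.3% of all 1864 genes so split. Of the 31 split toward MECs, 29 (93.5%) kept their side without overlap, against 95.6% of 473 genes. The groups overlapped for 6 members of the macrophage side. The exceptions on the MEC side were *Cntfr* and *Il33*, and *Il33* was at 123 and 46.0 CPM in WT macrophages and 122 and 357 CPM in WT MECs. *Cxcr5*, *Cxcr6* and *Tnfrsf8* were on the opposite side without overlap. These are counts of order, with 2 libraries against 2.

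Whether the macrophage-minus-MEC difference itself changed with the genotype was asked with an interaction term, fitted to the 10 libraries. The quasi-likelihood test called 0 of 18321 genes and 0 of 494 members, with 951 genes (5.19%) and 44 members at an unadjusted *P* under 0.05. The likelihood ratio test of edgeR called 53 genes, 6 of them members, namely *Agtr1a*, *Ccr1*, *Cxcr6*, *Icos*, *Tnfrsf8* and *Wnt10b*. *Cxcr6*, *Icos* and *Tnfrsf8* had 0 counts in both WT macrophage libraries and at most 2.72 CPM in a CebpbΔM macrophage library. *Agtr1a*, the angiotensin II receptor gene, had the smallest adjusted *P* among them, 7.19e-05, and an interaction of -3.08 on the log2 scale (SE 0.509, adjusted *P* = 0.487 by the quasi-likelihood test). It was at 146 and 117 CPM in CebpbΔM MECs and at 33.3 and 18.48 CPM in WT MECs, while macrophages held 44.4 to 61.8 CPM in CebpbΔM and 131 and 54.6 CPM in WT. *Tnfsf11* had an interaction of -7.72 (SE 2.67, adjusted *P* = 0.922 by the quasi-likelihood test), with 0.324 and 0 CPM in WT MECs and 13.2 and 0 CPM in WT macrophages.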

How the data were processed

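RNA was sequenced from 10 libraries, of which the 6 labelled C/EBPb knockdown entered the main comparison. The authors deposited raw counts of read pairs for each gene, not normalized. The authors trimmed reads with Trimmomatic, mapped them to GRCm38 with HISAT2 and counted pairs on Ensembl release 100 with featureCounts (version 1.6.2), at a mapping quality of at least 10 and with stranded counting. Totals were 27008166 and 25310926 counts in the MEC libraries and 16935000 to 19784862 in the macrophage libraries. By these totals, before TMM scaling, 3 counts are 0.111 to 0.177 CPM. The floor in the fold changes given as "at least" was 3 counts on the TMM scale. Such floors and intervals cover counting error only.

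The tables were joined by gene identifier and fitted in edgeR (version 4.0.16, R version 4.3.3) with TMM scaling, the quasi-likelihood test and Benjamini-Hochberg adjustment over all 17638 genes, at a threshold of 0.05. The study's methods name the likelihood ratio test, which was run as an alternative. SEs are the log2 fold change divided by the square root of *F*. An exact permutation test of 4 against 2 libraries cannot give a two-sided *P* below 0.133, so no such test was used. The fitting code was also run on simulated counts. The members, families, pairs, marker lists and the naming rule were chosen with earlier results of these data known. Named were *Adgre1*, *Tnfsf11*, *Cebpb*, the 8 ligands and 8 receptors with the largest fold change in each direction among split members with a mean of at least 10 CPM, their partners, up to 2 further members per role and family, and members called in the interaction. Some genes that this rule names are not reported here. Other genes named (*Csf1*, *Cx3cl1*, *Vegfa*, *Il33* and the remaining pair genes, *Hbegf*, *Btc*, *Erbb2*, *Igf1r*, *Lamb3*, *Lgals3*, *Sdc4*, *Tnfrsf11a*, the interaction genes by the likelihood ratio test and the exceptions to the order in WT libraries) were chosen after their values were seen.

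DESeq2 (version 1.42.0) and the likelihood ratio test were alternatives, as were RLE, upper-quartile and no scaling, filterByExpr, no filter, all 10 libraries in the fit, glmTreat, thinning, other fold thresholds and each library left out. No 2 libraries of a group agreed within counting noise. Of the members, 142 overlap another gene's exons, 32 on the same strand. Proteins were not used here.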

Additional observations from a re-analysis of the deposited data

Results flagged for a closer look

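Among 131 values tested in the 4 macrophage libraries (named genes and summed marker lists), 8 had a highest or lowest library far from the other 3, where chance gives about 1 in 20. Macrophage 4 stood apart in the milk protein markers, which summed to 755 CPM against 61.7 to 123 CPM in the others, in *Rspo1*, an activator of Wnt signalling, at 21.6 against 2.99 to 5.85 CPM, in *Il2rg*, the common cytokine receptor chain, at 41.2 against 69.0 to 73.4 CPM, and in the neurotrophin *Ntf3* at 4.59 against 14.2 to 14.5 CPM. Macrophage 6 was high in *Osmr* at 244 against 107 to 126 CPM and in *Plxna2*, a semaphorin receptor, at 60.6 against 34.1 to 38.5 CPM. Macrophage 7 was low in *Icam1*, an adhesion ligand of leukocyte integrins, at 778 against 1080 to 1100 CPM, and high in *Il1r2* at 50.1 against 16.96 to 21.1 CPM. Without macrophage 4, *Rspo1* was lower in macrophages, with a log2 fold change of -1.35 (adjusted *P* = 0.018, quasi-likelihood test).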

How the results depend on the processing

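The macrophage and MEC groups share no replicate number, so a paired fit was possible only for the interaction, where the replicate block gave 1 gene called and 0 members. Deviations of same-numbered libraries correlated at 0.096 in MECs and 0.083 in macrophages, so the numbers were not taken as pairs. Other interaction counts of genes were 53 (6 members) by the likelihood ratio test and 0 to 1 with each library left out. Against a 2-fold null (glmTreat), 1809 genes were higher in macrophages and 584 in MECs, in place of 3463 and 2495, with 38 members higher in MECs in place of 83. With each library left out, genes higher in macrophages ranged from 2046 to 3628 and in MECs from 1000 to 2732, and members higher in MECs from 52 to 93; each lowest value came without MEC 1. Pairs from macrophages to MECs ranged from 1 to 2 with each library left out, and pairs with both genes in MECs from 0 to 1. At 2-fold and 8-fold, pairs from macrophages to MECs numbered 2 and 0, from MECs to macrophages 16 and 0, and both in macrophages 32 and 11, with 3 both in MECs at 2-fold. Of 1790 values of 112 named genes, 1757 kept direction and side of the threshold, 19 lost the call, 7 gained it and 7 turned direction in genes that were not called: *Csf3* (-0.101 without MEC 3 and -0.005 without macrophage 6, up to 0.962 with another library left out), *Icam1* (0.026 by library totals, and from -0.378 to 0.301 with each library left out, 0.055 without macrophage 7), *Il11ra1* (from -0.087, without MEC 3, to 0.367) and *Osmr* (from -0.935 to 0.118, without MEC 3). The cause was not tested. Scaling moved the median of all genes by -0.053 to 0.072, and no called member changed sign. Leaving out a MEC library leaves 1, assumed to vary like the macrophages.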
